A study of Homo sapiens with 6 samples.

Results

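The genes described here encode the nuclear part of the mitochondrial respiratory chain and ATP synthase in MDA-MB-231 cells, an established human triple-negative breast cancer line. They were chosen by symbol alone, as the genes of the deposited table named *NDUFA*, *NDUFB*, *NDUFC*, *NDUFS* or *NDUFV* with a number, *SDHA* to *SDHD*, *UQCR*, *CYC1*, *COX5* to *COX8* or *ATP5*, with 2 pseudogenes left out. The rule found 77 of the 15917 listed genes. By symbol, 36 were counted with complex I, 4 with complex II, 10 with complex III, 10 with complex IV and 17 with ATP synthase, or complex V. *NDUFA4* was counted with complex IV, where its protein resides. *UQCRHL*, *ATP5S* and *ATP5SL* were counted with the complexes of their symbols, although they do not encode classical subunits. Of the 77 genes, 17 now carry another symbol in GENCODE, such as *ATP5A1*, today *ATP5F1A*, and symbols are given as in the table.

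The respiratory chain passes electrons from NADH (complex I) and succinate (complex II) through ubiquinone to complex III, and by cytochrome c to complex IV, which reduces oxygen. Complexes I, III and IV pump protons across the inner mitochondrial membrane, and complex V uses the return of the protons to make ATP. Most subunits are made in the cytosol from nuclear genes and imported, whereas a few hydrophobic ones are encoded by mitochondrial DNA, so that both genomes contribute to every complex but complex II.

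The study asked how the RNA-binding protein RBMS3 regulates transcripts in breast cancer cells. Total RNA after ribosomal depletion was sequenced from 6 libraries, 2 of cells with a control hairpin (shCTRL, genotype WT), 2 of cells with the hairpin shRBMS3-B3 (genotype RBMS3 KD1) and 2 with shRBMS3-C3 (genotype RBMS3 KD2). The study's methods place its hairpins in a lentiviral pLKO.1 vector with puromycin selection, so the control cells carried a vector and hairpin as well. The only level used here is the authors' mean normalized count, 1 value per gene over the libraries of their comparison. Values per library were not analysed here, the depth of the libraries is unknown, no spread between replicates can be given, and no test between knockdown and control cells was made. All values below therefore describe the level of a transcript in the pooled cells and not its response to knockdown, and a difference between genes has no replicate error beside it.

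The marker genes of the line were as follows. *VIM*, which encodes the mesenchymal filament protein vimentin, had a level of 32189 mean normalized counts per 1000 bases of transcript, and *AXL*, *CAV1*, *CD44* and *FN1* had 7502, 2014, 1850 and 742. Of the 6 mesenchymal markers *SPARC* was not listed. The estrogen and progesterone receptor genes *ESR1* and *PGR* were not listed either, the epithelial gene *CDH1* had 6.57, *EPCAM* 69.3 and *GATA3* 55.6, and *ERBB2* had 342. The knocked-down gene *RBMS3* had a mean normalized count of 272, or 32.1 per 1000 bases, which is the 17.3rd percentile of the listed genes per transcript length and the 43.3rd by the mean normalized count without division by length. This mean pools knockdown and control libraries, so it is not the level of *RBMS3* in control cells. The paper describes *RBMS3* expression in this line as relatively high among breast cancer lines.

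To compare levels between genes, the mean normalized count was divided by the length of the representative transcript. Respiratory chain transcripts were abundant. Their median was 1261 counts per 1000 bases, against 136.5 over all listed genes with a length, and the median member stood at the 91.7th percentile. In the highest decile, above 1034 per 1000 bases, were 44 of the 77 genes (57.1%), where 10.0% of listed genes fall by construction, and 72 lay above the median of the listed genes. The 5 below it were *NDUFA5*, *NDUFA9*, *NDUFC2*, *ATP5S* and *UQCRHL*. Together the 77 genes held 0.532% of the summed mean normalized counts. Without *UQCRHL*, *ATP5S* and *ATP5SL*, which do not encode classical subunits, the median was 1313.

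The span within the respiratory chain was wide, from 82.8 counts per 1000 bases for *NDUFA5* to 7291 for *COX7C*, an 88.0-fold range (SD over genes, 1.50 on the log2 scale). The largest values after *COX7C* were those of *NDUFS5* at 6292, *ATP5B* at 5111, *ATP5J2* at 3930 and *ATP5L* at 3868. By complex, the median was 2048 for complex IV, 1786 for complex V, 1210 for complex II, 987 for complex I and 951 for complex III. Per 1000 coding bases the order was different, with 3773 for complex IV, 3458 for complex III, 3100 for complex V, 2070 for complex II and 1543 for complex I. Per transcript length, the medians lay close together beside the ranges of complex I, from 82.8 to 6292, and complex V, from 116 to 5111. The lowest value of complex V was that of *ATP5S*, and the next was *ATP5G3* at 469. Per coding length, complex I ran from 687 to 9703, but complex II from 1223 to 2442, a narrower span than that of the medians.

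**Figure D1:**
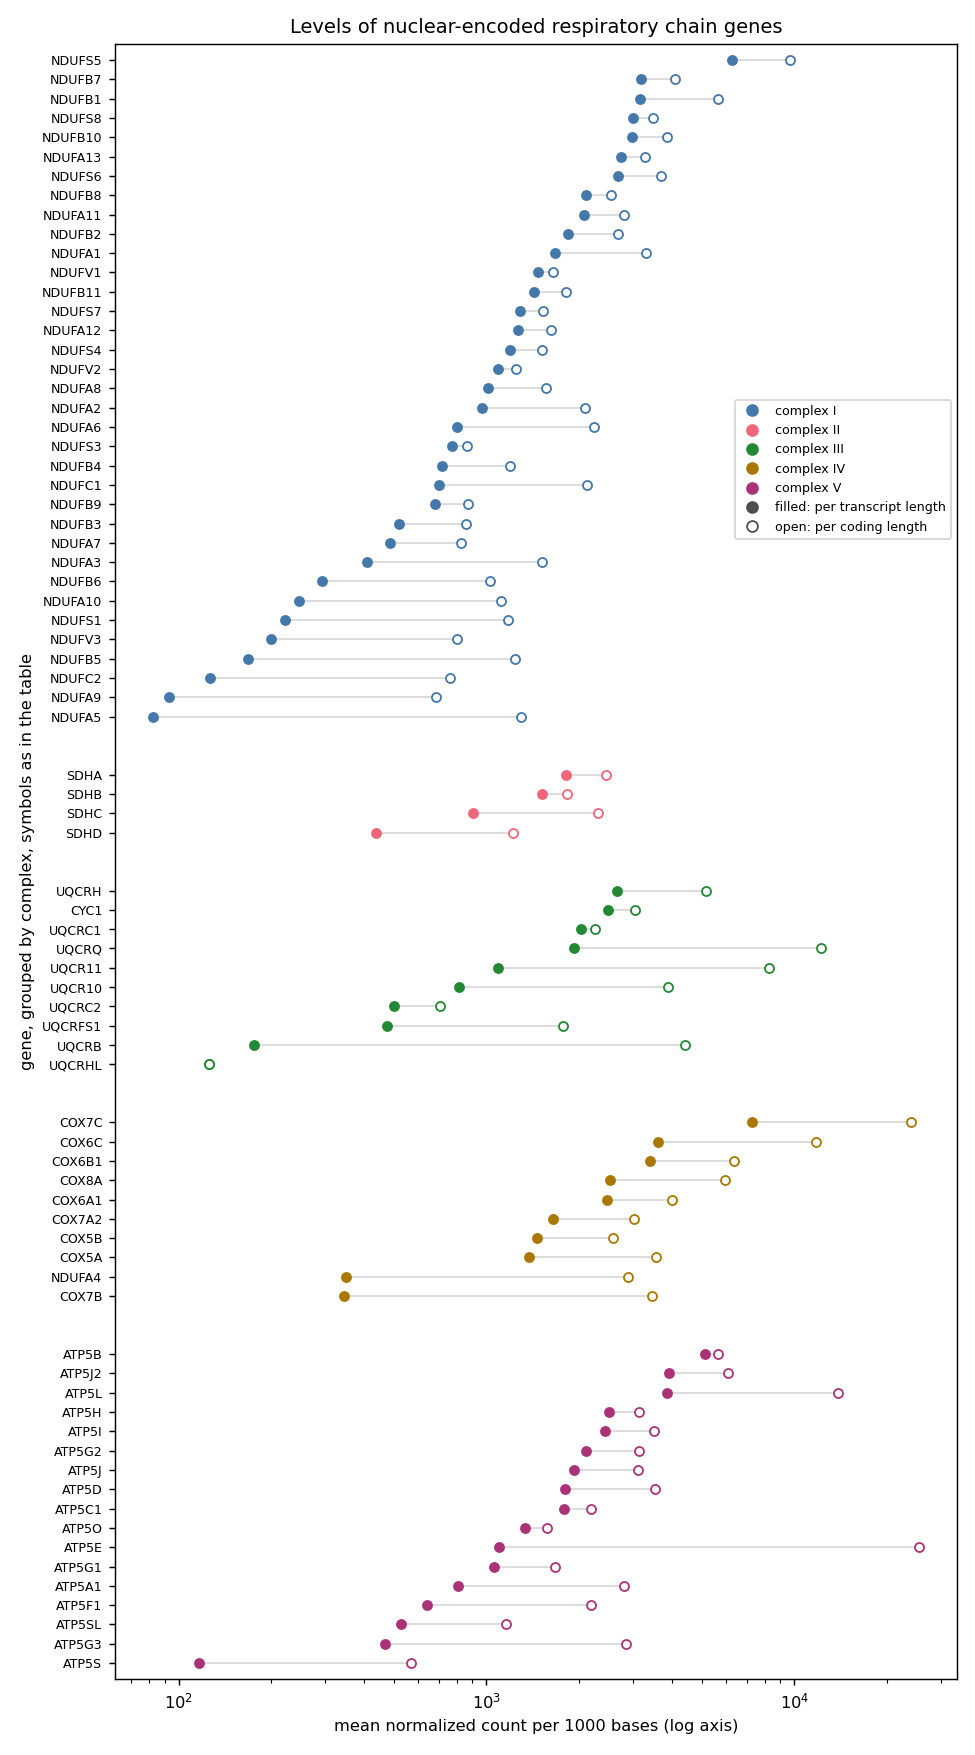
Level of 76 of the 77 genes, ordered within complexes I to V; the horizontal axis is the mean normalized count per 1000 bases on a log axis, with filled points per transcript length and open points per coding length. Filled points run from 82.8 for NDUFA5 to 7291 for COX7C, and the gap to the open point is widest in genes with long untranslated regions such as UQCRB and ATP5E.

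Complex I oxidizes NADH. Its 7 nuclear core subunits, which carry the flavin and the iron-sulfur clusters, had a median of 1088 counts per 1000 bases, and the other 29 genes, which encode accessory subunits, had 964. Per coding length the order was reversed, with 1243 for the core and 1618 for the accessory genes. Among the core genes, *NDUFV1*, whose product binds NADH and the flavin, had 1475 counts per 1000 bases, and *NDUFV2*, encoding an adjacent iron-sulfur protein, had 1088. *NDUFS8* and *NDUFS7*, whose products hold clusters on the way to ubiquinone, had 2986 and 1288. *NDUFS3* had 771. *NDUFS1*, encoding the largest iron-sulfur subunit, stood lowest among the core genes at 221 per 1000 bases although its mean normalized count of 2575 was the highest of them. Its representative transcript has 11660 bases, of which 9368 are 3′UTR, and per 1000 coding bases it had 1179.

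Among the accessory genes of complex I, *NDUFS5* (6292 counts per 1000 bases), *NDUFB7* (3174) and *NDUFB1* (3158) had the highest levels. *NDUFB10* had 2977 and *NDUFA13*, also known as GRIM-19, had 2731. The lowest were *NDUFA5* at 82.8, *NDUFA9* at 93.3 and *NDUFC2* at 126. Their 3′UTRs have 5122, 7209 and 1690 bases, and per 1000 coding bases they had 1297, 687 and 759. *NDUFC2* overlaps a listed read-through gene, *NDUFC2-KCTD14*, which had a mean normalized count of 949 against 273 for *NDUFC2* itself, so the level of *NDUFC2* depends on how reads of the shared exons were assigned and is uncertain. By name, the 12 *NDUFA* genes had a median of 885, the 11 *NDUFB* genes 1430 and the 8 *NDUFS* genes 1240 counts per 1000 bases.

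Complex II, succinate dehydrogenase, is also an enzyme of the citric acid cycle. *SDHA*, the flavoprotein, had 1809 counts per 1000 bases and *SDHB*, the iron-sulfur protein, had 1520. Its membrane anchors were lower, with 901 for *SDHC* and 438 for *SDHD*. Per coding length the order was *SDHA* at 2442, *SDHC* at 2311, *SDHB* at 1830 and *SDHD* at 1223, so only the first and last places were kept. Reads of *SDHA* may be shared with its copies, of which *SDHAP4* (617 per 1000 bases), *SDHAP1* (216.0) and *SDHAP3* (71.0) were listed.

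Complex III carries electrons from ubiquinol to cytochrome c. *CYC1*, encoding cytochrome c1, had 2486 counts per 1000 bases and *UQCRFS1*, encoding the Rieske iron-sulfur protein, had 475. The core proteins *UQCRC1* and *UQCRC2* differed, with 2034 and 501. Among small subunits *UQCRH* had 2661 and *UQCRB*, with a 3′UTR of 8108 bases, had 175 per 1000 bases but 4412 per 1000 coding bases. *UQCRHL*, a gene without introns, had 125. The coding sequences of *UQCRH* and *UQCRHL* were identical at 272 of 276 positions (98.6%), so reads of the abundant gene could be counted for the other, and the value of *UQCRHL* is uncertain.

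Complex IV has its catalytic center in subunits of the mitochondrial genome, and the nuclear subunits surround it. *COX7C* (7291 counts per 1000 bases), *COX6C* (3616) and *COX6B1* (3393) had the highest levels, and *NDUFA4* (349) and *COX7B* (343) the lowest. *NDUFA4* and *COX7B* have 3′UTRs of 1693 and 2115 bases, and per 1000 coding bases they had 2887 and 3453, inside the range of the other complex IV genes. Several subunits have a second form of more restricted expression. The ubiquitous *COX6A1* (2456), *COX6B1* (3393), *COX7A2* (1641) and *COX8A* (2522) were listed, while *COX6A2*, *COX6B2*, *COX7A1*, *COX7B2*, *COX8C*, *COX4I2* and *NDUFA4L2* were not. Not being listed says that a gene did not reach the table, whose lowest mean normalized count was 26.7.

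Complex V, ATP synthase, has a soluble head in which ATP is made, a stalk, and a proton-driven membrane ring. In the head, *ATP5B*, the catalytic beta subunit, had 5111 counts per 1000 bases and the largest mean normalized count of all 77 genes, 8991. *ATP5A1*, the alpha subunit, had 808, with a mean normalized count of 4657 and a 3′UTR of 4034 bases. Per coding length the pair lay nearer, at 5655 and 2802. *ATP5C1* (gamma) had 1786, *ATP5D* (delta) 1799 and *ATP5E* (epsilon) 1099 per 1000 bases. *ATP5E* has a coding sequence of 156 bases and a 3′UTR of 3370, and its 25436 counts per 1000 coding bases were the largest such value among the 77 genes. *ATP5O*, which links the head to the stalk, had 1337. Of the peripheral stalk, *ATP5H* had 2502, *ATP5J* 1927 and *ATP5F1* 641. *ATP5S* (now *DMAC2L*) and *ATP5SL* (now *DMAC2*, an assembly factor of complex I) matched the rule by their older symbols and had 116 and 527.

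Subunit c, the unit of the proton-driven ring, is encoded by 3 genes that differ in the import signal and give the same mature protein. *ATP5G2* had 2106 counts per 1000 bases, *ATP5G1* 1059 and *ATP5G3* 469. Per 1000 coding bases they had 3124, 1664 and 2831, so that *ATP5G3* changed places with *ATP5G1*. The last 75 coding bases are shown, from the representative transcripts of GENCODE, because they show how far short reads can tell the genes apart. Capitals mark the 21 positions at which the 3 genes are not all alike.
ATP5G1: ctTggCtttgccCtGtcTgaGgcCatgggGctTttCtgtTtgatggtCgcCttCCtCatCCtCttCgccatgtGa
ATP5G2: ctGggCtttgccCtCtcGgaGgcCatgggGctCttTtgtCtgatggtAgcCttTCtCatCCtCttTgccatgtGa
ATP5G3: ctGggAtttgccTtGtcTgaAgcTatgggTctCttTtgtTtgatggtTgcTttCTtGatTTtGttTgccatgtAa
Over the last 228 coding bases, *ATP5G1* and *ATP5G2* were identical at 203 positions and *ATP5G3* was identical to either at 185. All 75 codons before the stop encode the same residues in each pair, and 23 of the 25 differences between *ATP5G1* and *ATP5G2*, and 38 of the 43 of either with *ATP5G3*, fall on the third codon position. *ATP5G1* lies on chromosome 17 from 48892765 to 48895871, *ATP5G2* on chromosome 12 from 53632726 to 53677408 and *ATP5G3* on chromosome 2 from 175176258 to 175181710 (GRCh38).

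The length chosen for the division moved single genes more than the group. The median percentile of the 77 genes was 91.7 per transcript length and 91.1 per coding length. Per coding length, 12 genes stood higher and 5 lower by more than 10 percentile points. *NDUFA5* moved furthest upward, from the 37.3rd to the 81.8th percentile, and *UQCRHL* furthest downward, with a shift of -23.7 points. Across the 76 genes with a 3′UTR, 3′UTR length had a Spearman correlation of -0.64 with the level per transcript length and of -0.15 with the level per coding length. Both levels contain the same count, the first contains the 3′UTR length in its divisor, and the genes are not independent replicates.

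**Figure D2:**
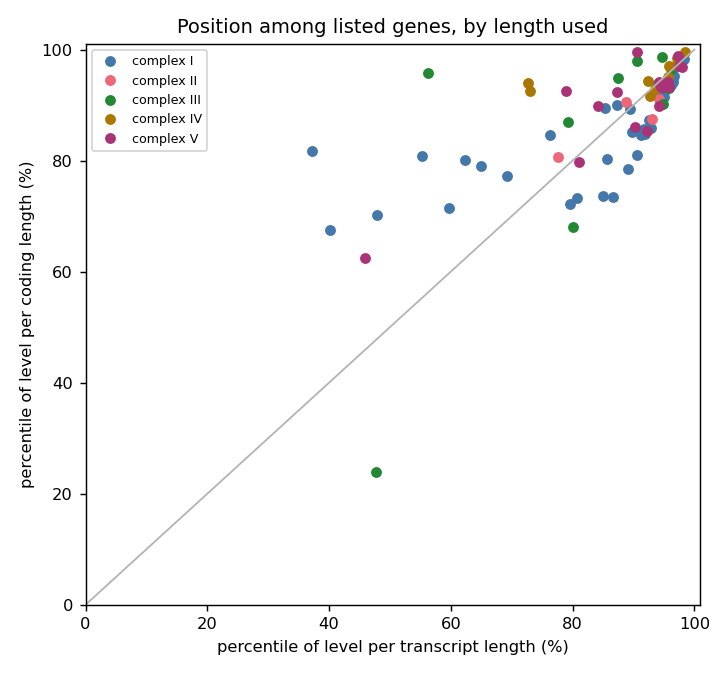
Percentile of each of the 77 genes among the listed genes that have the given length, with the level per transcript length on the horizontal axis and per coding length on the vertical axis (both in %), colored by complex; the line marks equal percentiles. Most genes lie in the upper right corner near the line, and NDUFA5 has 37.3 on the horizontal and 81.8 on the vertical axis.

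Beside the nuclear subunits stand the 13 protein genes of mitochondrial DNA, which had a median of 19127 counts per 1000 bases and held 1.75% of the summed mean normalized counts. Of these, 12 lay above the highest nuclear gene, and *MT-ND6*, the one protein gene on the light strand, lay within the nuclear range at 1273. Within complexes the mitochondrial median was 18.3-fold the nuclear median in complex I (7 mitochondrial genes), 23.2-fold in complex IV (3 genes) and 28.8-fold in complex V (2 genes), and the single gene of complex III, *MT-CYB*, was 19.7-fold above. Per coding length the ratios were 11.7, 12.6, 16.6 and 5.41 in that order. Mitochondrial messages are made as long polycistronic RNAs from many genome copies per cell.

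Genes that build the complexes were less abundant than the subunits themselves. Of 50 assembly factors, 46 were listed, and the 45 of them with an annotated transcript had a median of 191 counts per 1000 bases, with 4 in the highest decile. By complex, the medians were 267 for complex I (14 of 14 listed), 142 for complex II (4 of 4), 289 for complex III (5 of 6), 201 for complex IV (19 of 22) and 151 for complex V (4 of 4). *NDUFAF8*, listed as *C17orf89*, was the highest at 1799, and *NDUFAF2* and the copper chaperone *COX17* followed among the high values at 1200.2 and 1229. All 15 regulators of mitochondrial gene expression on the list were present, with a median of 154. *MYC* (819), *PPRC1* (519), *POLRMT* (468) and *YY1* (433) were the highest among them. *NRF1* had 149, *GABPA*, the DNA-binding part of the ETS factor NRF-2, had 52.7 and *TFAM*, which packages mitochondrial DNA, had 181. The coactivators *PPARGC1A* and *PPARGC1B* had 24.2 and 26.7.

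Subunits and carriers whose symbols the rule did not take lay mostly in the same range. *COX4I1* had 4207 counts per 1000 bases, *ATPIF1*, the inhibitor of ATP synthase, 4984, *C14orf2* 2875, *USMG5* 1934 and *NDUFAB1*, the mitochondrial acyl carrier protein, 1637. *CYCS*, cytochrome c, had 459 and *COX7A2L*, a factor of respiratory supercomplexes, 247, but per 1000 coding bases they had 7845 and 1632. In comparison, 77 genes of mitochondrial ribosomal proteins had a median of 579 and 83 genes of cytosolic ribosomal proteins had 8404, so the respiratory chain lay between the ribosomes of the compartments.

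**Figure D3:**
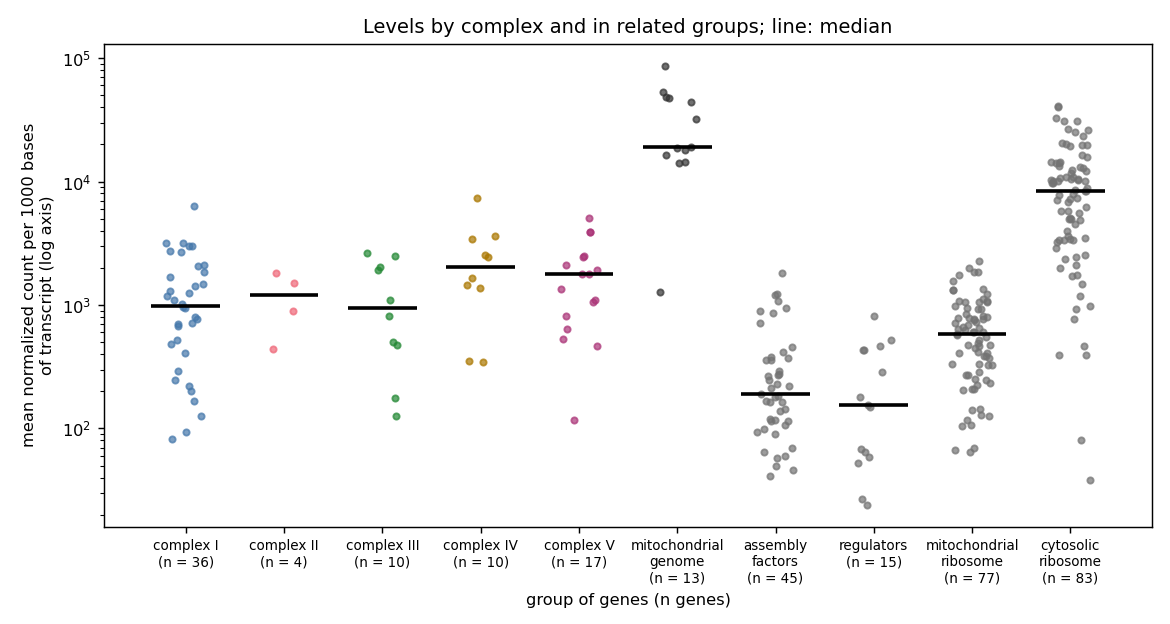
Level of each gene in the 5 complexes and in 5 related groups (1 point per gene, black line at the median, horizontal jitter without meaning); the vertical axis is the mean normalized count per 1000 bases of transcript on a log axis. The complexes have medians from 951 to 2048, below mitochondrial DNA (19127) and cytosolic ribosomal protein genes (8404) and above assembly factors (191).

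Features that the rule did not use were also compared. The transcripts of the respiratory chain genes were short, with a median of 857 bases against 3439 for listed protein-coding genes, and 43 (55.8%) had under 1000 bases against 5.96%. The median 3′UTR had 197.5 bases against 1377.5, the median 5′UTR 50 against 140, and the median number of exons was 4 against 9. These features were not particular to the respiratory chain, since cytosolic ribosomal protein genes had medians of 869 bases of transcript, 174 of 3′UTR, 42 of 5′UTR and 5 exons. The genes lay on 22 chromosomes, with 11 of them on chromosome 19 and 3 on X. The shares of all listed genes on these chromosomes are not given here.

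The study's question turned on an AUA element in 3′UTRs, a 7-letter motif with A, G or T first, then A or T, then ATA, then A or T, then A. It was found in the 3′UTR of 58 of 76 genes (76.3%, Wilson 95% interval 65.6 to 84.5), against 10477 of 12350 listed genes (84.8%). At least 2 matches were present in 37 genes (48.7%) against 64.2%. Per 1000 bases of 3′UTR there were 3.12 matches in the respiratory chain genes and 2.79 in the listed genes. Match number followed 3′UTR length (Spearman correlation 0.68 across 76 genes), with 19 matches in *NDUFS1*, 18 in *UQCRB* and 17 in *NDUFA5*. Among 3′UTRs under 200 bases, 25 of 38 genes (65.8%) had a match against 53.7% of listed genes. From 200 to under 1000 bases it was 15 of 20 (75%) against 74.7%, and from 1000 bases it was 18 of 18 against 94.8%. The interval covers counting error only, and these genes were not drawn at random.

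Many matches in short 3′UTRs contained the letters of the polyadenylation signal, AATAAA. The motif includes AATAAA preceded by A, G or T, and in 28 of the 58 genes with a match every match ended in this hexamer, against 2770 of 10477 listed genes with a match. Among those under 200 bases this was so in 22 of 25 genes (88%), against 450 of 579 listed genes with a match (77.7%). At least 1 match that did not end in the hexamer was found in 30 of the 76 genes (39.5%), against 62.4% of listed genes. These shares were not matched for 3′UTR length. Under 200 bases the share was 7.89% against 11.96% of listed genes. It was higher than in listed genes in longer 3′UTRs, with 50% against 38.9% from 200 to under 1000 bases. From 1000 bases it was 94.4% against 82.4%. The division of matches by the hexamer was chosen after the matches were seen. The first site is shown for *COX7C*, *NDUFS5* and *ATP5J2*, which had the highest levels per 1000 bases among the genes with a match, to make the overlap visible, in windows of 27 bases with the match in capitals.
COX7C: tgttggtaatTTATATAataaaaggga
NDUFS5: aagtgtgtaaAAATAAAggattgctcc
ATP5J2: attaacctccAAATAAAacatgactgg
In *NDUFS5* and *ATP5J2*, whose 3′UTRs have 119 and 132 bases, the single match ends in the hexamer at 97 and 114 bases after the stop codon. In *COX7C* the first of 2 matches, at 294 bases of a 322-base 3′UTR, overlaps the start of a hexamer without ending in it. A match describes letters only, and neither use of a hexamer as a signal nor binding of RBMS3 was measured here. The paper names AATAAA as the most significant motif in its mapped RBMS3 binding sites. It also reports that the AUA motif itself was enriched in those sites. A search without a given motif, against scrambled sequences, found an AUA element there as well.

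**Figure D4:**
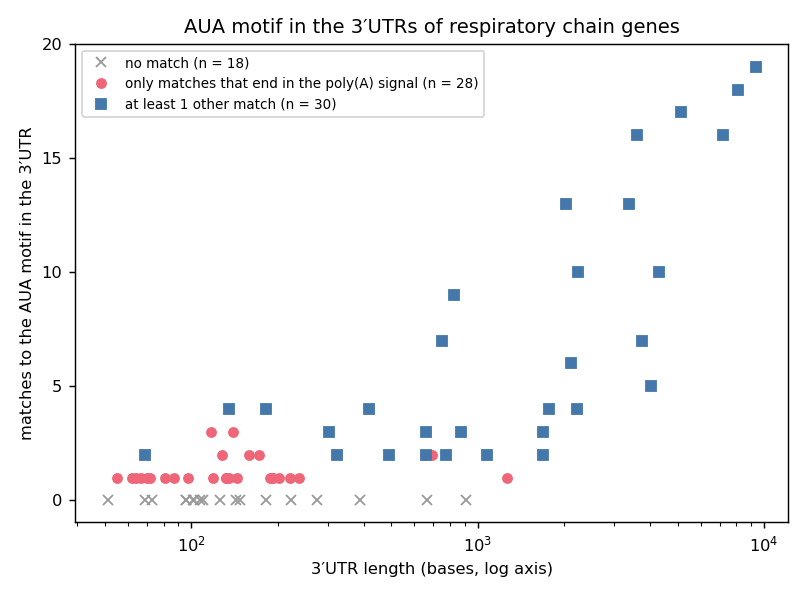
Number of AUA motif matches (vertical axis) against 3′UTR length in bases (log axis) for the 76 genes with a 3′UTR; crosses, no match (18 genes); circles, every match ends in the polyadenylation hexamer (28 genes); squares, at least 1 other match (30 genes). Match numbers reach 19 in the longest 3′UTRs, and the circles lie mostly under 300 bases.

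In promoters, words for factors known to act on respiratory chain genes were searched on both strands of RefSeq windows (GRCh38) that run from 250 bases before to 50 bases after the gene's start. A window was given for 61 of the 77 genes. The RefSeq start lay within 1000 bases of the outer GENCODE start of the gene in 53 of them and further away in 8. The ETS word CCGGAAG was present in 18 (29.5%), against 19.7% of 10066 listed protein-coding genes and 10.7% of all 27305 windows. The YY1 word AAGATGGC was present in 11 (18.0%), against 5.47% and 3.03%. The 10-letter NRF1 word was present in 4 (6.56%), namely *NDUFB4*, *NDUFA8*, *SDHD* and *ATP5C1*, against 2.27% and 1.36%, and its 8-letter core GCATGCGC in 13 (21.3%), against 5.49% and 3.27%. The core is contained in the longer word. The ETS core CCGGAA, which is contained in the ETS word, was present in 26 (42.6%), against 30.3% and 17.6%. The GC box GGGCGG was found in 59.0%, below the 70.7% of listed genes and above the 44.6% of all windows. CCAAT was found in 32.8%, against 37.0% and 35.7%, and TATAAA in 6 genes (9.84%), above the 5.51% of listed genes and below the 11.95% of all windows. The 18 genes with the ETS word had a median level of 2180 counts per 1000 bases and the 43 without it 1088. For the 10-letter NRF1 word the order was opposite, with 863 in the 4 genes that hold it and 1370 in the 57 that do not, and neither difference was tested.

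**Figure D5:**
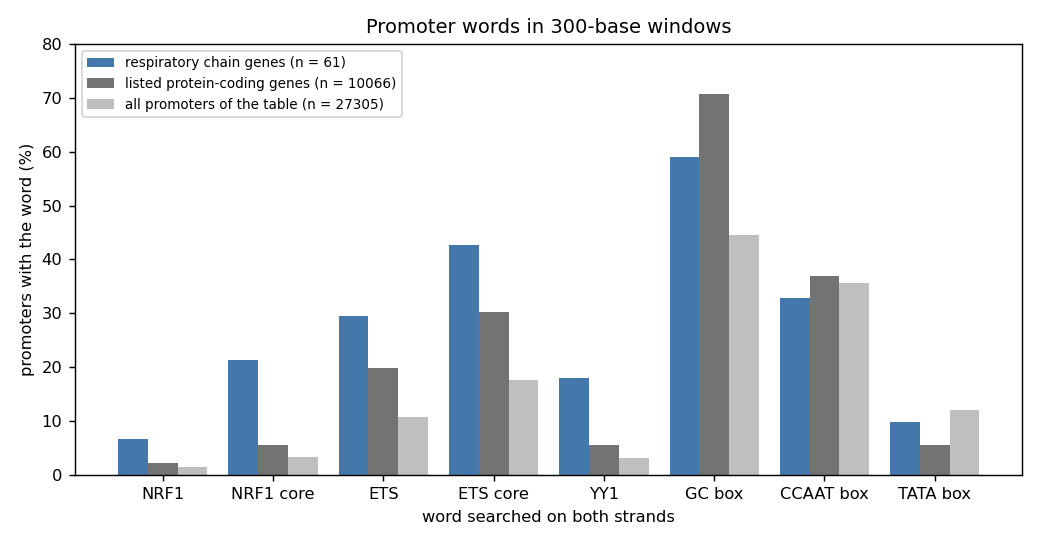
Share of 300-base promoter windows (vertical axis, %) that hold each word, for 61 respiratory chain genes, 10066 listed protein-coding genes and all 27305 windows; bars start at 0. The NRF1 core, ETS and YY1 words have taller bars in the respiratory chain genes than in the other groups, and the bar of the GC box lies between those of the other groups.

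Promoters of *SDHD* and *ATP5J* are shown because the first holds both the 10-letter NRF1 word and the ETS word and the second is shared with the gene of the ETS factor itself. Capitals mark these words on either strand. The *SDHD* window is chr11:112086623-112086922 on the plus strand and the *ATP5J* window is chr21:25735005-25735304 on the minus strand (GRCh38).
SDHD: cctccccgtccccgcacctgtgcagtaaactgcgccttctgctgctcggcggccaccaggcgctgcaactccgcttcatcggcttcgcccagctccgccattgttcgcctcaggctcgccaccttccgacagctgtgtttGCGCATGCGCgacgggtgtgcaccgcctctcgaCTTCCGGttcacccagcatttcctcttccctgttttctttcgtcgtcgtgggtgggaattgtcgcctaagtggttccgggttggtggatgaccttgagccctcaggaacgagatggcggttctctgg
ATP5J: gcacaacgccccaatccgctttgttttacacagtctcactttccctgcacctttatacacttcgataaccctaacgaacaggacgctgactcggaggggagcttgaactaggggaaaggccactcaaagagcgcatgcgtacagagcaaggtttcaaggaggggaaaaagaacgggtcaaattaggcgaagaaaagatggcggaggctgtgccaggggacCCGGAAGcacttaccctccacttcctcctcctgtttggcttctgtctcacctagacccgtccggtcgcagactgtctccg
In *SDHD* the NRF1 word stands upstream of an ETS word read on the opposite strand, and *ATP5J* has 1 ETS word. *SDHD* was the only gene with both words, and its level of 438 counts per 1000 bases was the lowest of complex II.

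Divergent starts were frequent, a description added after the values were seen. A protein-coding gene on the other strand began within 1000 bases upstream of 24 of the 77 genes (31.2%), against 1633 of 12408 listed protein-coding genes (13.2%). *ATP5J* and *GABPA* started 68 bases apart and had 1927 and 52.7 counts per 1000 bases. *SDHD* and *TIMM8B*, which encodes an import chaperone, started 117 bases apart with 438 and 1009. *NDUFB5* and *MRPL47*, a gene of the mitochondrial ribosome, started 156 bases apart with 168 and 273. The members of a pair did not have like levels in these examples.

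Copies of the genes limit how firmly single levels can be read. GENCODE names pseudogenes for 47 of the 77 genes, 185 in all and up to 17 for *COX6C*. The share of all listed genes with such copies is not given here, so whether 47 of 77 is unusual is not known. Of the pseudogenes, 14 were listed in the table, with *COX6A1P2* at 1423 counts per 1000 bases, *ATP5EP2* at 874 and *UQCRFS1P1* at 717 the highest. *UQCRFS1* itself had 475 per 1000 bases of a transcript with a 3′UTR of 2228 bases, but its mean normalized count of 1466 was above the 588 of the copy. How reads were divided between genes and copies was not measured.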

How the data were processed

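Total RNA of 6 MDA-MB-231 libraries was measured. The authors deposited 1 table of their knockdown against control comparison. Its mean normalized count is a signal that the authors averaged over libraries, and the submitters' processing notes name Salmon, DESeq2 and hg38 without versions. Its log2 fold change, standard error, test statistic, p-value and adjusted p-value columns hold the authors' own comparison and were not used. Which libraries entered the mean is not given in the sources used here. Depth per library is unknown, so no error or test of a level was computed.

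Identifiers were joined to GENCODE release 44 (GRCh38), which holds 15829 of 15917. Counts were divided by the length of the MANE Select transcript, or else the canonical one. Motifs were counted with overlaps in 3′UTRs of at least 7 bases. The members and lists were chosen with earlier results of these data known. The value of 1 member is not reported here by itself. Every other member may be named, and otherwise genes of the fixed lists, *RBMS3* and markers. Read-through genes, divergent neighbors and pseudogenes were named after their values were seen. The functions passed 5 of 5 checks when tested on simulated data. Alternatives were other lengths, backgrounds, totals, symbols, 3′UTRs and words. Analyses ran under Python 3.11.15 (pandas 2.3.3, numpy 2.4.6, SciPy 1.17.1), and matplotlib 3.10.9 drew the figures.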

Additional observations from a re-analysis of the deposited data

How the results depend on the processing

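No paired analysis was possible because values per library were not analysed here, and for the same reason leaving out a replicate, another normalization and a filter on low counts were not run. Of 41 alternatives to 13 results, 29 stayed within the spread used for comparison and 12 moved. Without division by length, the median percentile was 78.1 for all members, 70.4 for complex I and 83.1 for complex V, and 15.6% of members were in the highest decile. Complexes II, III and IV were also lower without division, at 80.7, 82.1 and 79.7, although they were counted as within the spread. The fall was from 94.7 to 79.7 in complex IV and from 94.2 to 83.1 in complex V. With the longest annotated transcript the median percentile was 88.6 for all members and 81.2 for complex I, with 44.2% in the highest decile. With coding length, complex I had 85.0 and 98.7% of members lay above the median. The high position of the members per length therefore rests in part on their short transcripts, by the construction of the division. Requiring at least 2 AUA matches gave 48.7%, the 8-letter NRF1 core 21.3% and the 6-letter ETS core 42.6%. The AUA density per 1000 bases is not a share and is given beside the shares in the report. By current symbols the rule takes 78 genes, adding *ATPIF1*, *C14orf2* and *USMG5* and losing *ATP5S* and *ATP5SL*. Levels of low and short genes cannot be given an error, since counts per library are unknown.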
